A study of Mus musculus with 6 samples.

Results

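The proteasome subunit genes of mouse were examined in sorted satellite cells, the resident stem cells of skeletal muscle, from pharyngeal and from limb muscle. Members were the genes that the array annotation names as Psma, Psmb, Psmc or Psmd followed by a number, without the immunoproteasome subunits Psmb8, Psmb9 and Psmb10. The rule gave 36 genes with 65 probes among 19057 genes named on the array. A probe past the filter on dim signal was available for 33 of them, among 11262 genes tested, with 13 genes in the core particle and 20 in the regulatory particle.

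The tested material was 3 pools of cells from pharyngeal muscle, set against 3 pools from gastrocnemius and quadriceps muscle, called limb pools here. All mice were C57BL/6 males aged 8 to 10 weeks, with no transgene, mutation or treatment given in the labels for either group. Each pool held 150000 to 200000 cells gathered from 10 to 30 mice, so a pool averages over animals and no value belongs to 1 mouse. Total RNA was amplified in 1 round and hybridized to Illumina MouseWG-6 v2.0 arrays, 1 array per pool. The labels do not say whether pools of a group came from separate animals, and p-values measure the spread between pools, which may be technical.

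The proteasome is the protease that degrades proteins tagged with ubiquitin. Its barrel-shaped core particle stacks rings of alpha subunits, which gate the entrance, on rings of beta subunits, of which Psmb5, Psmb6 and Psmb7 encode the catalytic ones. The regulatory particle sits on the end of the barrel: a ring of ATPases, encoded by the Psmc genes, unfolds the substrate, and non-ATPase subunits, encoded by most Psmd genes, bind ubiquitin, remove it and hold the particle together. Psmd5, Psmd9 and Psmd10 encode chaperones that help assemble the regulatory particle and leave it. Cells replace lost proteasome activity through the transcription factor Nfe2l1, which binds antioxidant response elements in proteasome gene promoters.

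The promoters of 4 members are shown because the text turns on these genes. They are Psmb3, the member with the most negative difference, the catalytic Psmb5 and Psmb6, and Psmd11, whose pharyngeal values lay above all limb values. Psmd3 shared the pattern of Psmd11 but had no matching promoter. Each promoter shown runs 5′ to 3′ from 250 bases before to 50 bases after the gene's start, from RefSeq on GRCm38.p6. They lie at chr11:97703184-97703483 (plus strand) for Psmb3, chr14:54617946-54618245 (minus strand) for Psmb5, chr11:70525107-70525406 (plus strand) for Psmb6 and chr11:80428365-80428664 (plus strand) for Psmd11. Capitals mark matches to the antioxidant response element TGACNNNGC or to the CCAAT box CCAAT, both searched on both strands.
Psmb3: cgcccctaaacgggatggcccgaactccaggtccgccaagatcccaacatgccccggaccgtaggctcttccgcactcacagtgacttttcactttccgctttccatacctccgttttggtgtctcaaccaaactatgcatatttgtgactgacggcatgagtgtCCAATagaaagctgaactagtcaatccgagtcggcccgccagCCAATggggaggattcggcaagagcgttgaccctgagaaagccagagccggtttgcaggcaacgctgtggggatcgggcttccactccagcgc
Psmb5: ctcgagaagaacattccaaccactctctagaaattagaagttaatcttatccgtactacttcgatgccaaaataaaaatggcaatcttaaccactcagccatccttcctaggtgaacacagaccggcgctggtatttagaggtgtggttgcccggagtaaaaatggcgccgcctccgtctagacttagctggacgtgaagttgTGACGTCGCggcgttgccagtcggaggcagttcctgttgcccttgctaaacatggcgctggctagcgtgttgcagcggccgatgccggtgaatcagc
Psmb6: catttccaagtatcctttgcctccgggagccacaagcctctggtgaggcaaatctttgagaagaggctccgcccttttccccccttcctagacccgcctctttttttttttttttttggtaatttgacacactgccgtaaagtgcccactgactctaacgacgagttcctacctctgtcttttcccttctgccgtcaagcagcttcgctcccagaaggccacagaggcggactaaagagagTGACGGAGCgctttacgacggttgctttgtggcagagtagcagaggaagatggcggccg
Psmd11: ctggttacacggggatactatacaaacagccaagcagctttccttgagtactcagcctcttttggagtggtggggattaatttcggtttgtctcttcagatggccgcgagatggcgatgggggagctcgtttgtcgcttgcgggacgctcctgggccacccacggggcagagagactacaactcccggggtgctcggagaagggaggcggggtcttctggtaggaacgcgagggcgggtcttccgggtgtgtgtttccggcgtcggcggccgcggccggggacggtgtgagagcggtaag

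In these windows Psmb3 held 2 CCAAT boxes, Psmb5 and Psmb6 each held 1 antioxidant response element match, and Psmd11 held neither. RefSeq promoters of 300 unambiguous bases matched 29 of the 36 member genes by symbol, 31 promoters in all. Member promoters on chromosome 18 were left out, whereas the comparison promoters were not filtered by chromosome. The antioxidant response element letters occurred in 5 of the 31 (16.1%), those of Psmb5, Psmb6, Psmc6, Psmd9 and Psmd12, against 12.4% of all 32841 promoters in the table and 14% of promoters of genes tested. CCAAT occurred in 12 of 31 (38.7%), against 37.4% of all promoters and 37.3% of those of genes tested, with 7 of 13 among core particle promoters and 5 of 18 among regulatory particle promoters. The GC box GGGCGG, searched on both strands, occurred in 18 of 31 (58.1%), against 35.7% of all promoters and 60.9% of promoters of genes tested. It occurred in 5 of 13 core particle promoters and 13 of 18 regulatory particle promoters. The 13 core promoters are not those of the 13 core genes tested. They include Psma3, Psmb11 and 2 of Psma6, and lack Psmb1, Psmb2 and Psmb7. The E-box CACGTG occurred in 2 of 31 (6.45%), against 7.15% of all promoters and 9.86% of those of genes tested. No motif contains another, and a match is a match of letters only.

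Between 20919 and 22793 probes per array were above background in pharyngeal pools (detection p under 0.05), and between 22045 and 22241 in limb pools. Pearson correlations of arrays, across the genes tested, were 0.886 to 0.915 among pharyngeal pools and 0.959 to 0.968 among limb pools. Between groups they were 0.858 to 0.885. All arrays lay on 1 chip with the groups on separate positions, so position and group cannot be told apart. Of 12 satellite cell markers tested, 7 fell in pharyngeal pools and 0 rose, with a median log2 difference of -1.93, and their summed normalized intensity ranged from 3878 to 4111 in pharyngeal pools, against 6435 to 8883 in limb pools. The defining markers Pax7 and Myf5 were above background on all 6 arrays, and both were among the 7 that fell (differences -2.27 and -1.89). Of 16 epithelial markers tested, 8 rose and 0 fell (summed intensity 3313 to 11243 in pharyngeal pools, 765 to 1005 in limb pools), and 5 of the 16 were above background on no limb array. Of 4 thyroid and parathyroid markers, 3 rose (1180 to 3282 in pharyngeal pools, 78.1 to 80.1 in limb pools). None of these 4 was above background on any limb array, so they passed the filter through the pharyngeal pools alone. Of 7 macrophage and myeloid markers, 2 rose, Lyz1 and S100a9 (list sum 1271 to 2937 in pharyngeal pools, 355 to 725 in limb pools). S100a9 was above background on no limb array. The others were not called: Lyz2 (1.82), Tyrobp (0.36), Adgre1 (0.19), Csf1r (0.01) and Cd14 (-0.17). Of 3 tenocyte markers, 1 rose (1090 to 1365 in pharyngeal pools, 431 to 685 in limb pools). Of 5 myofibre markers, 1 rose (595 to 956 in pharyngeal pools, 278 to 283 in limb pools). In contrast, 0 of 5 endothelial, 0 of 4 fibro-adipogenic and 0 of 5 pericyte and smooth muscle markers were called in either direction. The sums of these lists overlapped between the groups. The part of these other cell types in the proteasome values was not tested. In pools of this kind, fewer cells of a type and less RNA per cell cannot be told apart.

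The proteasome genes differed little between pharyngeal and limb pools. None of the 33 tested members passed the threshold, an adjusted p under 0.05 from limma with Benjamini-Hochberg adjustment over all genes, in either direction. Across all genes tested, 1.71% were called higher and 1.61% lower in pharyngeal pools. At an unadjusted p under 0.05, 2 members were higher, Psmd3 and Psmd11, and 1 was lower, Psmb3, beside 8.74% of all genes higher and 11.6% lower. The same 3 members were those whose groups did not overlap, beside 11.7% of all genes with every pharyngeal value above every limb value and 15.0% with every pharyngeal value below.

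Each difference is the pharyngeal mean less the limb mean, in log2 units, where 1 unit is a doubling. The median size of a member's difference, sign ignored, was 0.10, against 0.31 over all genes tested. Members above background on all 6 arrays (32) had a median size of 0.10, against 0.31 for all 8315 genes above background on all 6 arrays. The difference was under 0.5 in size for 31 of 33 members, beside 69.1% of all genes, and the exceptions were Psmd3 and Psmd11. For 28 of 33 members the 95% confidence interval of the difference lay within 1 unit of 0, beside 52.5% of all genes. For Psma7, Psmd3, Psmd5, Psmd9 and Psmd11 the interval reached past 1 unit. Replicate spread is part of this comparison: the median SD of a member was 0.27 over pharyngeal pools and 0.16 over limb pools, against 0.36 and 0.22 over all genes tested.

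The direction of the members had no clear lean. A positive difference was found for 12 of 33 members (36.4%), against 44.5% of all genes. The median was -0.05 for the members and -0.06 for all genes, and with median scaling in place of quantile normalization the median of all genes became 0.03 and those of the core and regulatory particles became positive (0.05 and 0.09).

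**Figure D1:**
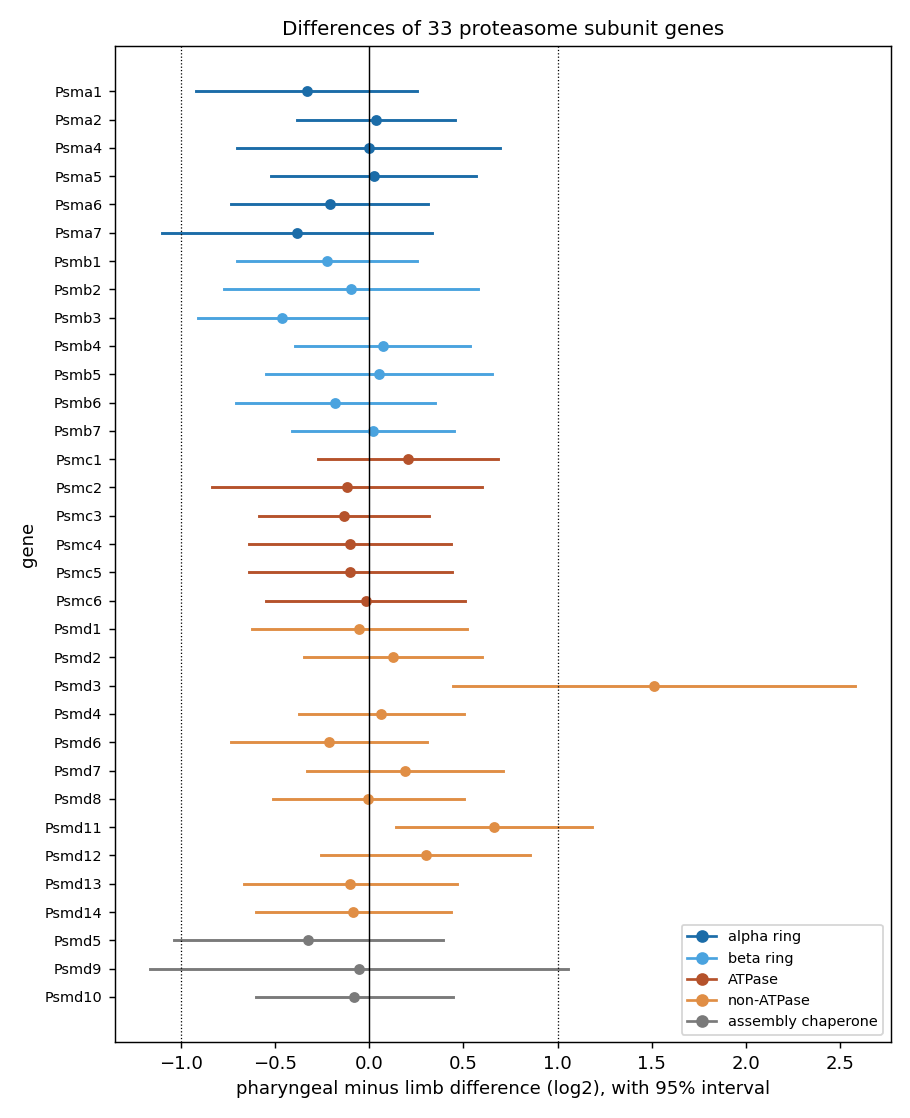
Each point is the pharyngeal minus limb difference of 1 gene on the log2 scale, the bar is its 95% confidence interval (3 pools per group), and colour marks the class of subunit. Of 33 genes, 31 lie within 0.5 of 0, and Psmd3 at 1.51 and Psmd11 at 0.66 stand to the right.

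The alpha ring was measured through 6 of its 8 genes, none of them called, with a median difference of -0.11. Values are given on the log2 scale for pools 1, 2 and 3 of each group, in that order. Psma7, an alpha ring subunit, had the most negative difference of the ring: it stood at 8.08, 8.35 and 9.19 in pharyngeal pools, against 8.95, 9.05 and 8.76 in limb pools. Pharyngeal pools 1 and 2 lay below all limb pools, whereas pool 3 lay above them all, so the groups overlapped. The difference was -0.38 ± 0.31 (SE, adjusted p = 0.540). Without pharyngeal pool 3 it was -0.71 and still not called (adjusted p = 0.133). The second kept probe of Psma7 gave -0.54.

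Psma2, another subunit of that ring, had its most positive difference, 0.03 ± 0.18 (SE, adjusted p = 0.941). It stood at 10.34, 10.30 and 10.41 in pharyngeal pools, against 10.18, 10.38 and 10.39 in limb pools. The groups overlapped, with limb pool 1 below every other pool. Psma5 stood at 8.93, 8.91 and 8.93 in pharyngeal pools, against 8.48, 9.03 and 9.19 in limb pools. Its pharyngeal values were nearly equal and lay inside the limb range, with a difference of 0.02 ± 0.23 (SE, adjusted p = 0.972), while its other kept probe gave -0.23. Psma1 ranged from 5.71 to 6.43 in pharyngeal pools and from 6.13 to 6.42 in limb pools (difference -0.33, 95% interval -0.92 to 0.25). Psma6 ranged from 6.92 to 7.40 in pharyngeal pools and from 7.12 to 7.59 in limb pools (difference -0.21). Psma4 ranged from 7.35 to 8.00 in pharyngeal pools and from 7.12 to 8.05 in limb pools (difference -0.0033). Each of these 3 ring subunits overlapped between the groups.

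The remaining alpha genes gave no level. Psma3, an alpha subunit of every proteasome, had 1 probe, which was above background on none of the 6 arrays (lowest detection p 0.713). Psma8 encodes an alpha subunit known from testis, and neither of its 2 probes was above background on any array (lowest detection p 0.257).

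The beta ring was measured through 7 of its 8 genes, with a median difference of -0.10 and none called. The catalytic members stood out in neither direction. Psmb5, the chymotrypsin-like subunit, stood at 5.33, 5.95 and 5.76 in pharyngeal pools, against 5.31, 5.95 and 5.63 in limb pools. The groups covered nearly the same range, and the difference was 0.05 ± 0.26 (SE, 95% interval -0.55 to 0.65, adjusted p = 0.942). Psmb6, the caspase-like subunit, stood at 8.58, 7.97 and 8.19 in pharyngeal pools, against 8.31, 8.35 and 8.62 in limb pools. Its pharyngeal pool 2 was lowest and the groups overlapped, with a difference of -0.18 ± 0.23 (SE, 95% interval -0.71 to 0.35, adjusted p = 0.711), and its other kept probe gave -0.08. The trypsin-like subunit Psmb7 stood at 9.24, 8.98 and 9.28 in pharyngeal pools, against 9.14, 9.19 and 9.11 in limb pools. The limb values lay inside the pharyngeal range, with a difference of 0.02 ± 0.18 (SE, 95% interval -0.41 to 0.45, adjusted p = 0.971). For these 3 genes the interval leaves out a change of 1 log2 unit in either direction, on values with the offset. Psmb5 is dim, and the offset makes changes of low signals come out too small.

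Psmb3, a non-catalytic beta subunit, was the only member whose pharyngeal values all lay below its limb values. It stood at 7.54, 7.28 and 7.68 in pharyngeal pools, against 7.90, 8.03 and 7.95 in limb pools. The means were 7.50 ± 0.20 in pharyngeal pools and 7.96 ± 0.06 in limb pools (SD, n = 3 each), so the gap was larger than the spread within either group. The difference was -0.46 ± 0.19 (SE, 95% interval -0.91 to -0.01), a 1.38-fold lower value in pharyngeal pools, and it did not pass the threshold (adjusted p = 0.238). A second Psmb3 probe was above background on pharyngeal pool 1 alone (detection p 0.0182) and was not tested. Its unnormalized intensity was 112.3 in that pool, against 88.65 to 94.25 on the other arrays.

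Psmb4, a non-catalytic subunit of the same ring, had the most positive difference there, 0.07 ± 0.20 (SE, adjusted p = 0.884). It stood at 9.57, 9.63 and 10.00 in pharyngeal pools, against 9.63, 9.62 and 9.75 in limb pools. Pharyngeal pool 3 was highest and the other pools lay close together. Psmb2 stood at 8.67, 7.82 and 8.79 in pharyngeal pools, against 8.45, 8.41 and 8.71 in limb pools. Pharyngeal pool 2 alone was low; the difference was -0.10 ± 0.29 (SE, adjusted p = 0.888), and 0.20 without that pool. Psmb1 ranged from 7.69 to 8.10 in pharyngeal pools and from 8.01 to 8.30 in limb pools (difference -0.22). Psmb11, known from the epithelium of the thymus cortex, had 1 probe, above background on no array (lowest detection p 0.0598).

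The ATPase ring was measured in full, 6 of 6 genes, with a median difference of -0.10 and none called. Its differences were confined to a narrow band between -0.13 and 0.21, and all 6 intervals lay within 1 unit of 0. Psmc1 had the most positive one: it stood at 8.20, 8.15 and 8.02 in pharyngeal pools, against 7.62, 8.05 and 8.07 in limb pools. Limb pool 1 was low and the rest overlapped, with a difference of 0.21 ± 0.21 (SE, adjusted p = 0.628). Psmc3 had the most negative one: it stood at 7.81, 7.57 and 7.97 in pharyngeal pools, against 8.01, 7.87 and 7.87 in limb pools. Its pharyngeal pool 2 was lowest and the groups overlapped, with a difference of -0.13 ± 0.19 (SE, adjusted p = 0.752).

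Pharyngeal pool 2 was the lowest of its group in 5 of the 6 ATPase genes. Psmc2 stood at 9.46, 8.32 and 9.18 in pharyngeal pools, against 9.14, 9.17 and 9.001 in limb pools (difference -0.12 ± 0.31, SE, adjusted p = 0.870). Psmc5 stood at 9.01, 8.58 and 9.31 in pharyngeal pools, against 9.11, 9.03 and 9.06 in limb pools (difference -0.10 ± 0.23, SE, adjusted p = 0.851). Psmc6 stood at 8.38, 7.74 and 8.13 in pharyngeal pools, against 7.96, 8.23 and 8.11 in limb pools (difference -0.02 ± 0.23, SE, adjusted p = 0.977). In each of these 3 ATPase genes the limb pools sat close together and pharyngeal pool 2 lay below them all. Psmc4 ranged from 7.01 to 7.61 in pharyngeal pools and from 7.37 to 7.59 in limb pools (difference -0.10).

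**Figure D2:**
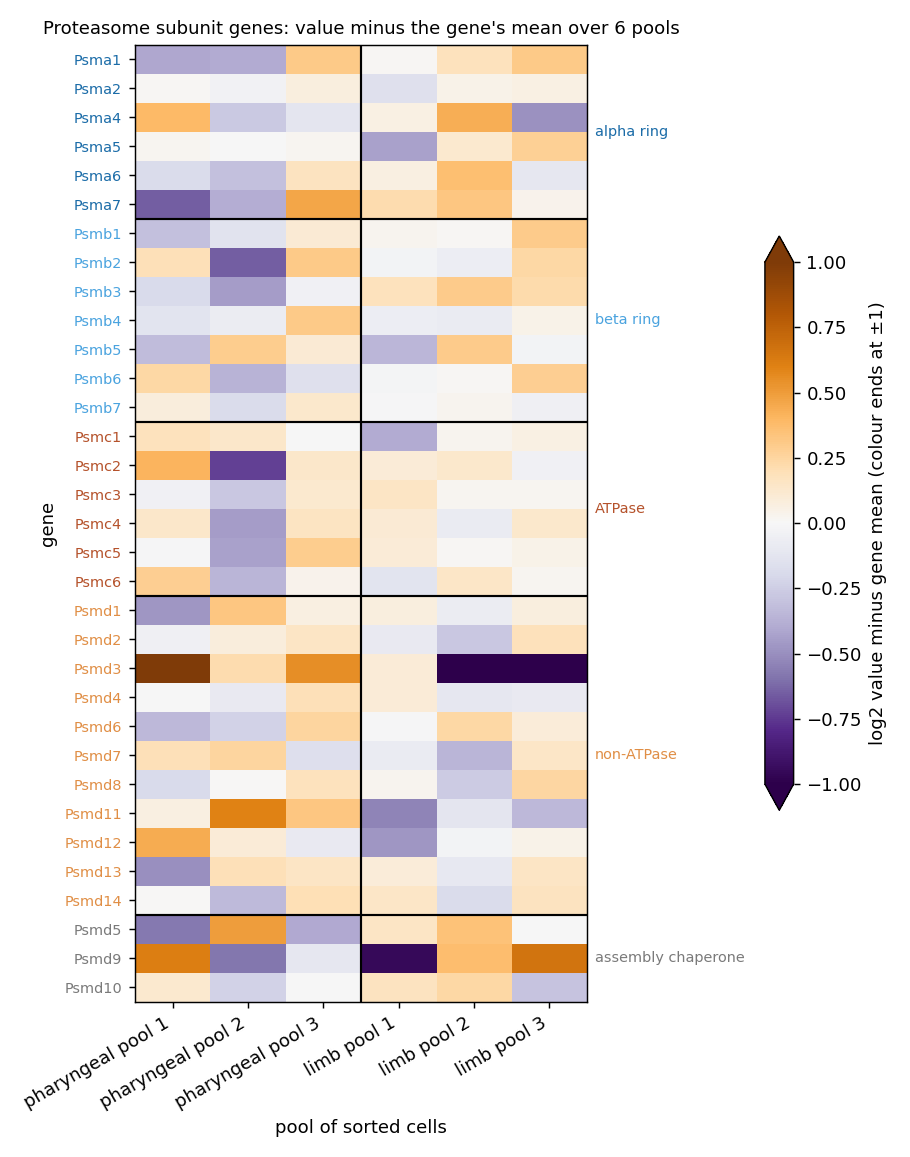
Each cell is the log2 value of 1 gene (rows, by class) in 1 pool (columns, pharyngeal left and limb right) minus that gene's mean over the 6 pools; orange is above the mean, purple below. Pharyngeal pool 2 is purple in 5 of 6 ATPase genes, and Psmd3 is dark purple in limb pools 2 and 3.

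The non-ATPase subunits, 11 of 11 measured, held the most positive differences, with a median of 0.06 and none called. Psmd3, a scaffold subunit of the lid of the regulatory particle, had the largest. It stood at 7.40, 6.11 and 6.45 in pharyngeal pools, against 6.00, 4.79 and 4.64 in limb pools. Every pharyngeal value lay above every limb value, but pharyngeal pool 2 exceeded limb pool 1 by little, and the spread was wide in both groups. The means were 6.65 ± 0.67 in pharyngeal pools and 5.14 ± 0.75 in limb pools (SD, n = 3 each). The difference was 1.51 ± 0.46 (SE, 95% interval 0.45 to 2.58), 2.85-fold, with an adjusted p of 0.125, the smallest of any member. Its size depended on the background step: it was 0.95 with a larger offset and 0.66 with no background model, and 1.97 without limb pool 1. A second Psmd3 probe was above background on pharyngeal pool 1 alone, at an unnormalized intensity of 127.8, against 85.45 to 96.07 on the other 5 arrays. The median unnormalized intensity of the array was also highest in that pool, 105.5, against 95.37 to 101.4 on the others. Psmd3 was highest in pool 1 of each group. The summed epithelial marker level was lowest in pharyngeal pool 1 of its group (3313, with 4294 and 11243 in pools 2 and 3) and highest in limb pool 1 of its group (1005, with 766 and 765 in pools 2 and 3), and its part in the Psmd3 difference was not tested.

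Psmd11, another lid subunit, was the other member with separate groups. It stood at 6.92, 7.45 and 7.18 in pharyngeal pools, against 6.32, 6.73 and 6.52 in limb pools. The means were 7.18 ± 0.27 in pharyngeal pools and 6.52 ± 0.21 in limb pools (SD, n = 3 each), and the gap between the nearest pools was smaller than either SD. The difference was 0.66 ± 0.22 (SE, 95% interval 0.14 to 1.18), 1.58-fold, and it did not pass the threshold (adjusted p = 0.161). Its 3 kept probes did not move together. One gave 0.41, from 6.29, 5.93 and 6.28 in pharyngeal pools, against 5.43, 5.58 and 6.26 in limb pools. The dimmest gave -0.35, from 4.28, 5.07 and 5.01 in pharyngeal pools, against 4.99, 5.24 and 5.20 in limb pools, and it was above background on 2 of 3 pharyngeal arrays. The mean over the 3 probes gave a Psmd11 difference of 0.24 (adjusted p = 0.537).

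Psmd6, a lid subunit, had the most negative difference of the non-ATPase class. It stood at 6.68, 6.79 and 7.27 in pharyngeal pools, against 7.01, 7.26 and 7.11 in limb pools, with pharyngeal pool 3 above all others. The difference was -0.21 ± 0.22 (SE, 95% interval -0.74 to 0.31, adjusted p = 0.646), and its other probe gave 0.02. Psmd7, the structural partner of the deubiquitinase Psmd14, stood at 9.05, 9.12 and 8.70 in pharyngeal pools, against 8.78, 8.51 and 9.01 in limb pools. The groups overlapped (difference 0.19 ± 0.22, SE, adjusted p = 0.684), and its other probes gave -0.02 and -0.20. Psmd14, which cuts ubiquitin chains off the substrate, stood at 8.52, 8.19 and 8.72 in pharyngeal pools, against 8.66, 8.33 and 8.69 in limb pools. Pool 2 was lowest in each group, and the difference was -0.08 ± 0.22 (SE, adjusted p = 0.874), with 0.10 from the other probe.

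The ubiquitin receptor Psmd4 ranged from 11.15 to 11.43 in pharyngeal pools and from 11.13 to 11.33 in limb pools (difference 0.06). Psmd1 and Psmd2 encode the large scaffold subunits of the base. Psmd1 ranged from 7.48 to 8.27 in pharyngeal pools and from 7.88 to 8.03 in limb pools (difference -0.05), and Psmd2 ranged from 6.96 to 7.16 in pharyngeal pools and from 6.73 to 7.19 in limb pools (difference 0.12). Among the remaining lid subunits, Psmd12 ranged from 7.24 to 7.78 in pharyngeal pools and from 6.87 to 7.38 in limb pools (difference 0.30). Psmd13 ranged from 9.20 to 9.88 in pharyngeal pools and from 9.60 to 9.85 in limb pools (difference -0.10). Psmd8 ranged from 8.36 to 8.73 in pharyngeal pools and from 8.29 to 8.80 in limb pools (difference -0.0058). All 6 of these genes overlapped between the groups on the probe that represents them.

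The assembly chaperones had differences of -0.32, -0.05 and -0.08 and were not called. Psmd5 stood at 4.26, 5.33 and 4.44 in pharyngeal pools, against 4.99, 5.18 and 4.83 in limb pools. It was above background in all 3 limb pools but in 1 pharyngeal pool, where it was highest, and its difference was -0.32 ± 0.31 (SE, 95% interval -1.04 to 0.39, adjusted p = 0.609). Psmd9 stood at 8.39, 7.20 and 7.67 in pharyngeal pools, against 6.84, 8.15 and 8.44 in limb pools. It varied more between pools of a group than any other chaperone, and its difference was -0.05 ± 0.47 (SE, 95% interval -1.16 to 1.05, adjusted p = 0.969), or -0.54 without limb pool 1, with 0.11 from its other probe. Psmd10, also known as gankyrin, stood at 7.48, 7.13 and 7.35 in pharyngeal pools, against 7.53, 7.60 and 7.06 in limb pools. Its groups overlapped, with a difference of -0.08 ± 0.22 (SE, adjusted p = 0.883) and -0.20 and 0.01 from its other probes.

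The core and regulatory particles were set side by side. The core particle genes (13) had a median difference of -0.10, with a range from -0.46 to 0.07 and 5 positive. The regulatory particle genes (20) had a median of -0.05, with a range from -0.32 to 1.51 and 7 positive. The core median minus the regulatory median was -0.04, and it changed sign, to 0.05, when the filter on dim probes was dropped and Psma3, Psma8 and Psmb11 entered the core. It was -0.12 from the mean of the kept probes, -0.145 without pharyngeal pool 1, -0.148 without pharyngeal pool 2 and -0.156 without limb pool 1. Leaving out the chaperones gave a regulatory median of -0.02 over 17 genes. On the probes that represent the genes, the highest core difference was 0.07 (Psmb4). In the regulatory particle Psmd3 (1.51) and Psmd11 (0.66) were highest. Psmd12 (0.30), Psmc1 (0.21), Psmd7 (0.19) and Psmd2 (0.12) also exceeded the highest core difference. Dimmer probes of the core gene Psmb7 gave 0.25, 0.22 and -0.33.

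**Figure D3:**
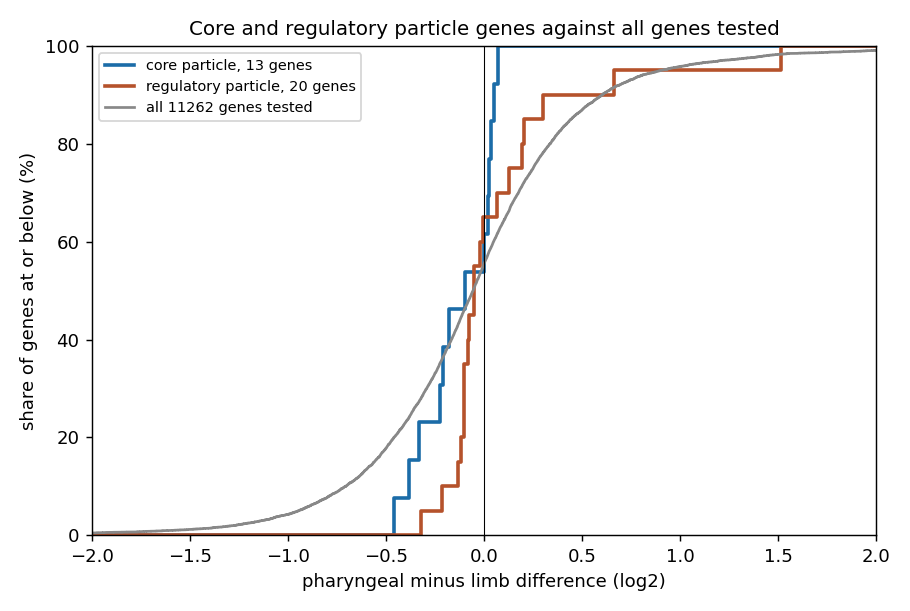
The share of genes (y axis, %) at or below each pharyngeal minus limb difference (x axis, log2) is drawn for the 20 regulatory particle genes, the 13 core particle genes and all 11262 genes tested. Both particle curves climb steeply around 0, with core values between -0.46 and 0.07, while the curve of all genes climbs less steeply there.

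Member values also varied between pools of a group. Each gene's value was set against its own mean over the 6 pools. The median deviation of the 33 members was 0.00, -0.18 and 0.13 in pharyngeal pools 1, 2 and 3, against 0.02, 0.02 and 0.06 in limb pools 1, 2 and 3. Over all genes tested it was -0.05, -0.02 and -0.02 in pharyngeal pools, against 0.01, 0.04 and 0.03 in limb pools. Pharyngeal pool 2 was the lowest of its group in 18 of 33 members (54.5%), against 32.2% of all genes. Pharyngeal pool 3 was the highest of its group in 18 of 33 members (54.5%), against 31.6% of all genes, and in 10 of the 13 core genes. Limb pool 3 was likewise the highest of its group in 17 of 33 members (51.5%), against 32.5% of all genes, and in 7 of the 13 core genes. Limb pool 1 was the highest in 4 of 33 members (12.1%), against 33.1% of all genes.

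The median deviations of the pharyngeal pools lay further apart than the group medians did. The ATPase genes had median deviations of 0.16, -0.39 and 0.13 in pharyngeal pools 1, 2 and 3, against 0.09, 0.03 and 0.03 in limb pools. The core genes had -0.13, -0.27 and 0.11 in pharyngeal pools, against -0.01, 0.12 and 0.06 in limb pools. The non-ATPase genes had -0.01, 0.10 and 0.18 in pharyngeal pools, against 0.02, -0.12 and 0.09 in limb pools. Pool 3 was above pool 2 of the pharyngeal group in all 3 classes, whereas pool 2 was lowest for the ATPase and core genes and pool 1 for the non-ATPase genes. Pharyngeal pool 3 also had the highest summed epithelial marker level, 11243, and the most probes above background, 22793. Limb pool 3 had the lowest summed epithelial marker level of its group, 765, and 22045 probes above background. The part of marker level or probe count in the pool pattern was not tested.

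Different probes of the same member did not always give the same direction. Several kept probes were available for 18 members, and in 12 of them the probe differences had both signs, beside 40.4% of all genes with several kept probes. Member differences were also smaller than those of all genes (median size 0.10 against 0.31). The part of this in the mixed signs was not tested. None of the 58 kept member probes was called when each probe was tested on its own, beside 2.58% of all kept probes of named genes. The groups did not overlap for 4 member probes higher in pharyngeal pools and 2 lower, beside 11.4% of probes higher and 14.3% lower.

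These 6 probes represent their gene for Psmd3, Psmd11 and Psmb3, and are dimmer probes of Psmc2, Psmb7 and Psmd8. The dimmer Psmc2 probe stood at 6.79, 7.51 and 6.996 in pharyngeal pools, against 6.59, 6.04 and 6.20 in limb pools. It was higher in every pharyngeal pool, by 0.82 ± 0.26 (SE, adjusted p = 0.151 over all probes), whereas the brighter probe of this ATPase gave -0.12. The dimmer Psmd8 probe stood at 7.61, 7.46 and 7.72 in pharyngeal pools, against 8.14, 7.91 and 8.06 in limb pools. It was lower in every pharyngeal pool (difference -0.44 ± 0.19, SE, adjusted p = 0.271), whereas the brighter probe gave -0.0058. The dimmest Psmb7 probe stood at 5.53, 5.63 and 5.75 in pharyngeal pools, against 5.37, 5.41 and 5.48 in limb pools (difference 0.22, adjusted p = 0.579). The other Psmb7 probes gave 0.02, 0.25 and -0.33. Among the other members with both signs, the second probes gave 0.25 for Psmc5, 0.34 for Psmc6, and 0.06 and -0.17 for Psmb2. Psmd1, Psmd2 and Psmd12 kept 1 sign over their probes, with -0.14 and -0.42 from the further Psmd1 probes, 0.04 from Psmd2 and 0.12 from Psmd12.

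**Figure D4:**
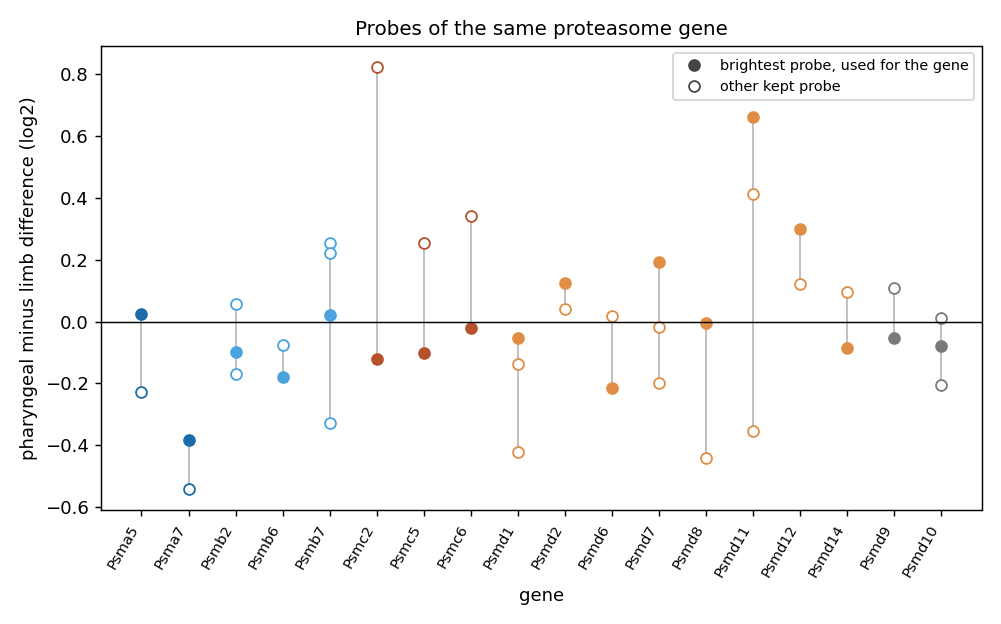
Each point is the pharyngeal minus limb difference (y axis, log2) of 1 kept probe, for the 18 members with several kept probes (x axis); filled points are the brightest probe, which represents the gene. Psmd11 spans from -0.35 to 0.66 and Psmc2 from -0.12 to 0.82.

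The genes that build, activate, feed or control the proteasome were read from a list of 43, of which 33 were tested and the other 10 were not analysed here. In this list 0 rose and 2 fell in pharyngeal pools at an adjusted p under 0.05 over all genes, beside 1.71% of all genes higher and 1.61% lower, and the median difference was -0.04. In 9 of the 18 alternative settings 0 genes of the list were called. The genes that fell were Psmg4 and Ube3c. Psmg4 encodes an assembly chaperone of the alpha ring. It stood at 5.09, 4.96 and 5.13 in pharyngeal pools, against 5.83, 6.54 and 6.64 in limb pools, with every pharyngeal value below every limb value. Psmg4 fell by 1.28 on the log2 scale (SE 0.26, 95% interval -1.87 to -0.68, adjusted p = 0.0439), to a value 2.42-fold lower. The size depended on the processing, from -1.56 to -0.53 over 18 alternative settings, with the smallest size under no background model. The call was kept in 5 of these settings and in 1 of the 6 that leave out a pool, with adjusted p from 0.0322 to 0.195.

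Ube3c encodes a ubiquitin ligase that works on the proteasome. It stood at 4.52, 4.34 and 4.77 in pharyngeal pools, against 6.00, 5.55 and 5.58 in limb pools, again with no overlap, and was above background in 1 of 3 pharyngeal pools. Ube3c fell by 1.17 (SE 0.22, 95% interval -1.69 to -0.65, adjusted p = 0.0369). With 2 of 3 pharyngeal values at background, this size depended on the background step: over 17 alternative settings it ran from -1.29 to -0.40, with the smallest size under no background model. The call was kept in 7 of these settings and in 1 of the 6 that leave out a pool, with adjusted p from 0.0267 to 0.150. Both genes fell in pools where satellite cell markers were lower and epithelial markers higher, and the part of cell makeup in them was not tested.

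Other assembly factors were not called: the differences were -0.49 for Psmg1, -0.37 for Psmg2, 0.12 for Psmg3 and -0.26 for Pomp, which guides beta ring formation. The immunoproteasome subunits, which replace the catalytic ones in immune cells and after interferon, were not called either. Psmb8 stood at 6.00, 6.51 and 5.34 in pharyngeal pools, against 5.16, 4.60 and 5.39 in limb pools (difference 0.90 ± 0.35, SE, adjusted p = 0.207). Psmb9 stood at 5.68, 5.70 and 6.76 in pharyngeal pools, against 6.62, 6.79 and 6.60 in limb pools (difference -0.62 ± 0.31, SE, adjusted p = 0.323). Psmb10 stood at 8.27, 9.04 and 8.43 in pharyngeal pools, against 8.93, 8.81 and 8.48 in limb pools (difference -0.16 ± 0.26, SE, adjusted p = 0.788). The 3 subunits did not share a direction, and the groups overlapped for each.

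The transcription factors Nfe2l1, which drives proteasome genes, and Nfe2l2 had positive differences that did not pass the threshold. Nfe2l1 stood at 10.18, 10.29 and 9.88 in pharyngeal pools, against 9.70, 9.67 and 9.63 in limb pools (difference 0.45 ± 0.19, SE, adjusted p = 0.246). Nfe2l2, the related factor of the oxidative stress response, stood at 8.55, 8.96 and 9.08 in pharyngeal pools, against 8.03, 8.31 and 8.15 in limb pools (difference 0.70 ± 0.22, SE, adjusted p = 0.132). For both factors every pharyngeal value exceeded every limb value, a pattern found in 11.7% of all genes. The 5 members with antioxidant response element letters in their promoters had differences of 0.05 (Psmb5), -0.18 (Psmb6), -0.02 (Psmc6), 0.30 (Psmd12) and -0.05 (Psmd9).

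In the other groups of the list nothing was called. Among the activators, Psme2, a subunit of the cap induced by interferon, had the largest difference, -0.34 (adjusted p = 0.594), from 4.31, 4.49 and 5.11 in pharyngeal pools, against 5.50, 4.67 and 4.76 in limb pools. It was above background in 1 of 3 pharyngeal pools. Among shuttles and extraction factors, Nploc4, a cofactor of the segregase Vcp, had the largest, 0.33 (adjusted p = 0.559). Uba6, an enzyme that activates ubiquitin, had a difference of -0.0015, and Ipo9, which carries proteasomes into the nucleus, had -0.05. Usp14, a deubiquitinase on the proteasome, had 0.30 (adjusted p = 0.446), and Vcp had 0.28 (adjusted p = 0.482). For both, every pharyngeal value exceeded every limb value, as in 11.7% of all genes.

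**Figure D5:**
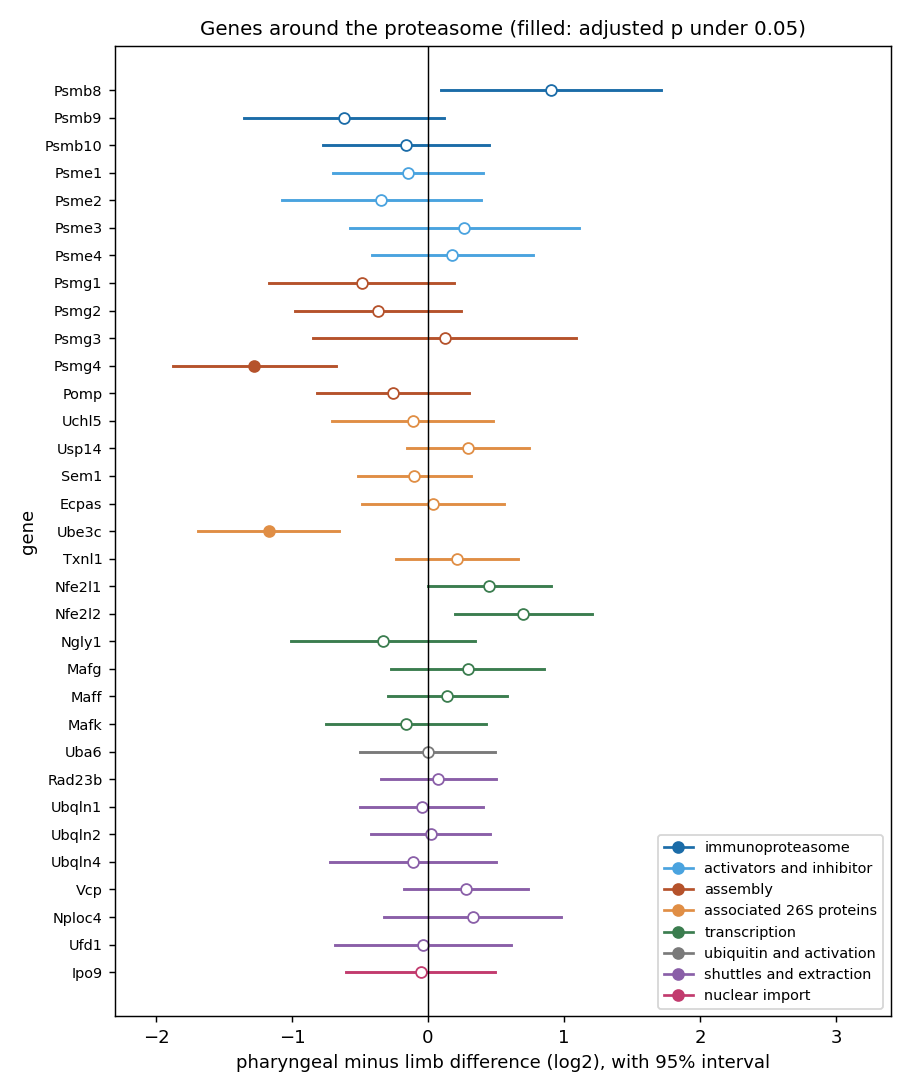
Points are pharyngeal minus limb differences (x axis, log2) of the 33 tested genes around the proteasome, coloured by group of the list, with 95% confidence intervals; filled points passed an adjusted p under 0.05. Psmg4 at -1.28 and Ube3c at -1.17 are the filled points.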

How the data were processed

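The authors deposited raw intensity values, a detection p-value for every value, and a processed intensity table; GenomeStudio 2011.1 is named per the submitters' processing notes. The series' design text names background correction; whether the processed table had it could not be settled from its values, so the unnormalized table (lowest intensity 76.1 to 82.1 per array) was analysed and the processed one was an alternative. Of 45281 probes, 34885 are annotated to 1 gene, 18 to several and 10378 to none here.

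Background was removed in R 4.3.3 with limma 3.58.1 (normexp from the detection p-values, offset 16); arrays were then quantile normalized and log2 was taken. Because of the offset, low signals are compressed and their fold changes come out too small. Of all probes, 22633 were above background (detection p under 0.05) in 3 or more of the 6 arrays, and each gene took its brightest one. The limma model (lmFit, eBayes) held only the group and was tested 2-sided, with Benjamini-Hochberg adjustment over 11262 genes; SE is moderated. The number of arrays, 3 per group, limits the precision. The script was tested on simulated data.

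Every member is named. Values per pool are given for members without overlap between groups, the largest difference per class and direction, the catalytic subunits and members whose probes differ in sign. Of the list of 43 related genes, those past the threshold, the immunoproteasome subunits and the largest per group are named; Usp14, Vcp, Nfe2l1 and the other assembly factors were added after their values were seen. Cell type markers (satellite cell, epithelial, thyroid and parathyroid, macrophage and myeloid, endothelial, fibro-adipogenic, tenocyte, pericyte and smooth muscle, myofibre) were read as lists. Members and lists were chosen with earlier results of these data known. Alternatives covered the background model, normalization, table, filter, probe rule, variance model, array weights, a replicate block, each pool left out, and member choice.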

Additional observations from a re-analysis of the deposited data

How the results depend on the processing

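No proteasome subunit gene was called higher or lower (0 in each direction) under any of 18 alternatives, including each pool left out, although 374 genes were called over the whole table in the analysis as reported. Of 593 member values under these alternatives, 579 moved by less than the SE of the reported difference and 14 by more. The whole-table count was 568 with a trended, robust variance model, and 80, 62 and 58 without limb pools 1, 2 and 3. Median scaling split the calls 211 higher and 123 lower, and the reported setting 193 and 181. The smallest adjusted p of any member ranged from 0.0553 to 0.362 (Psmd3 at both ends). With a replicate block on the label number, 139 genes and 0 members were called, Psmd3 had the adjusted p of 0.0553, and the core minus regulatory median stayed at -0.04. Samples of the same number did not deviate together (correlations -0.0102, -0.0132 and 0.000225), so the numbers give no pairing. The core minus regulatory median was 0.0547 with no filter on dim probes, because 3 core genes at background entered, and -0.156 to -0.0493 with 1 pool left out. With 1 pool left out, the core median ranged from -0.19 to -0.04 and the regulatory median from -0.10 to 0.10. Psmd3 ranged from 0.66 to 1.97, Psmd11 from 0.24 to 0.81 and Psmb3 from -0.55 to -0.30 over all alternatives. Psmc2 was 0.35 from the mean of its probes and 0.22 without pharyngeal pool 2, Psmd5 was -0.64 without that pool, and Psmd8 was -0.22 from the mean of its probes. Signal near background limits Psma3, Psma8 and Psmb11, which have no level, and Psmd5. The cause of these changes was not tested, other than for the filter.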
